A study of Arabidopsis thaliana with 12 samples.

Results

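The genes described here encode 3 assembly factors of the photosynthetic machinery. AT1G22700 (PYG7) serves photosystem I, LPA19 (AT1G05385) serves photosystem II, and AT3G47650 (BSD2) serves Rubisco. Each is read from a probe whose platform annotation names that gene alone. Where a gene has several such probes, the probe is chosen by its mean intensity over all 12 columns of values, the brightest being kept. Each member had a single probe of this kind, so brightness decided nothing. They are 3 of 691 genes with a probe of their own among 3439 probes, and all 3 passed the filter on values of 0. The genes were singled out with earlier results of these data known, so the tests below are not independent evidence.

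The samples comprised 6 columns of values titled prors1 and 6 titled WT, all of Arabidopsis thaliana kept in the dark overnight. The prors1 plants are described as lacking prolyl-tRNA synthetase, and WT is the Columbia 0 ecotype. Groups were taken from the titles, because the source field gives WT for every sample. The labels used here name no allele, line, tissue or plant age for either group, and PRORS1 had 0 probes of its own, so the mutated gene was not analysed here. The titles number the columns 1 to 6 in each group and name no arrays. Columns 1 and 2, 3 and 4, and 5 and 6 of a group were taken as readings of 1 array because their values were closest to each other, and averaged, and every n of 3 arrays, SE and p below rests on this inference. With the 12 columns as separate samples, PYG7, LPA19 and BSD2 were called too (limma adjusted p = 0.0067, 0.000556 and 0.000753). That fit counts readings of 1 array separately, so it does not test the inference. With the array as a random block PYG7 was not called and LPA19 and BSD2 were (limma adjusted p = 0.155, 0.0108 and 0.0111). Nothing in the labels says that arrays carry RNA of separate plants, so the spread behind each p-value is that of these arrays and could be technical.

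Prolyl-tRNA synthetase loads proline onto its transfer RNA, and PRORS1 supplies this activity to plastids and mitochondria. Photosystems and Rubisco are built from plastid-made and nucleus-encoded subunits. Assembly factors bring these subunits together and are not part of the finished complex. Those described here are encoded in the nucleus. PYG7, a thylakoid protein with tetratricopeptide repeats related to cyanobacterial Ycf37, is needed to accumulate photosystem I. LPA19 is a lumenal relative of Psb27 that aids the C-terminal processing of the D1 reaction centre protein. BSD2 is a stromal chaperone with a DnaJ-type zinc finger, named for a maize mutant, that binds the Rubisco large subunit before the holoenzyme forms.

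The prors1 columns were brighter than the WT columns at most probes. The median of the values above 0 was 0.407 to 0.520 per prors1 column and 0.224 to 0.289 per WT column. Total intensity was 2632 to 3456 per prors1 column and 2312 to 2840 per WT column. As deposited, the median log2 fold of prors1 over WT was 0.77 over the 2908 tested probes. Folds below are on the log2 scale after quantile normalization, which gives all columns 1 distribution, so they are relative to the other probes. A probe was called where its limma adjusted p was under 0.05, which held for 26.3% of tested probes, with 12.8% higher and 13.5% lower in prors1. Of the 12 marker genes listed for root, flower, seed, vascular and guard cells 0 had a probe of their own, so the makeup of the tissue was not tested. In such bulk RNA, fewer cells of a type and less RNA per cell cannot be told apart.

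PYG7, the photosystem I factor, rose in prors1, with its WT signal near the floor, while LPA19 and BSD2 fell relative to the other probes. All 3 members were called, 1 higher and 2 lower, against the 26.3% of all tested probes. The fall of LPA19 was 1.74-fold and that of BSD2 1.94-fold after quantile normalization. The rise of PYG7 is uncertain in size because of its WT readings, and its call ended in 2 of the settings below. As deposited, LPA19 had nearly the same intensity in both groups, and BSD2 was lower in prors1 without passing the test.

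The 6 prors1 columns of PYG7 had intensities of 0.254 (lowest), 0.330 (median) and 0.364 (highest), against 0, 0.0501 and 0.110 in the 6 WT columns. By array PYG7 read 0.282, 0.356 and 0.314 in prors1, against 0.0237, 0.0644 and 0.0695 in WT. Every prors1 column lay above every WT column. By array, a looser measure, 52.5% of tested probes as deposited were higher in prors1 without overlap, PYG7 among them. PYG7 averaged 0.317 ± 0.037 in prors1 and 0.0525 ± 0.025 in WT (SD, n = 3 arrays each). The log2 fold was 1.48 ± 0.27 (SE, limma adjusted p = 0.00887), with a 95% interval of 0.86 to 2.10. It leaves out a WT column listed at 0. With a pseudocount of 0.0595 added to every value, which keeps that 0, it was 1.09 ± 0.24. The pseudocount is above the WT median of 0.0501 and itself pulls folds of such dim readings towards 0. The lower fold is thus not the effect of the kept column alone. As deposited the log2 fold was 2.58 ± 0.28 (limma adjusted p = 0.000686). After quantile normalization the arrays of 20.5% of tested probes were higher in prors1 without overlap, PYG7 among them.

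The WT readings of PYG7 lay near the floor and disagreed within arrays. WT replicate 2 was listed at 0. The mean intensities above count this 0, while on the log2 scale, with 0 as missing, WT array 1 rests on a single column. The columns of WT array 2 read 0.110 and 0.0187, 5.90 times apart. The prors1 columns of 1 array lay within 1.39 times of each other. With the columns fitted separately and the array as a random block, the log2 fold was 1.48 ± 0.75 and the call ended (limma adjusted p = 0.155). The call also ended when a constant was taken off each column so that the column medians became equal. These constants were 0.184 to 0.296 for prors1 columns and 0 to 0.0652 for WT columns. PYG7 then ran from -0.00626 to 0.179 in prors1 and from -0.0466 to 0.0863 in WT, and the columns overlapped (log2 fold 0.62 ± 0.49, limma adjusted p = 0.400). That fold left out the columns then below 0, which were prors1 replicate 2 and WT replicates 2 and 4. The sign was positive in every setting run.

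**Figure D1:**
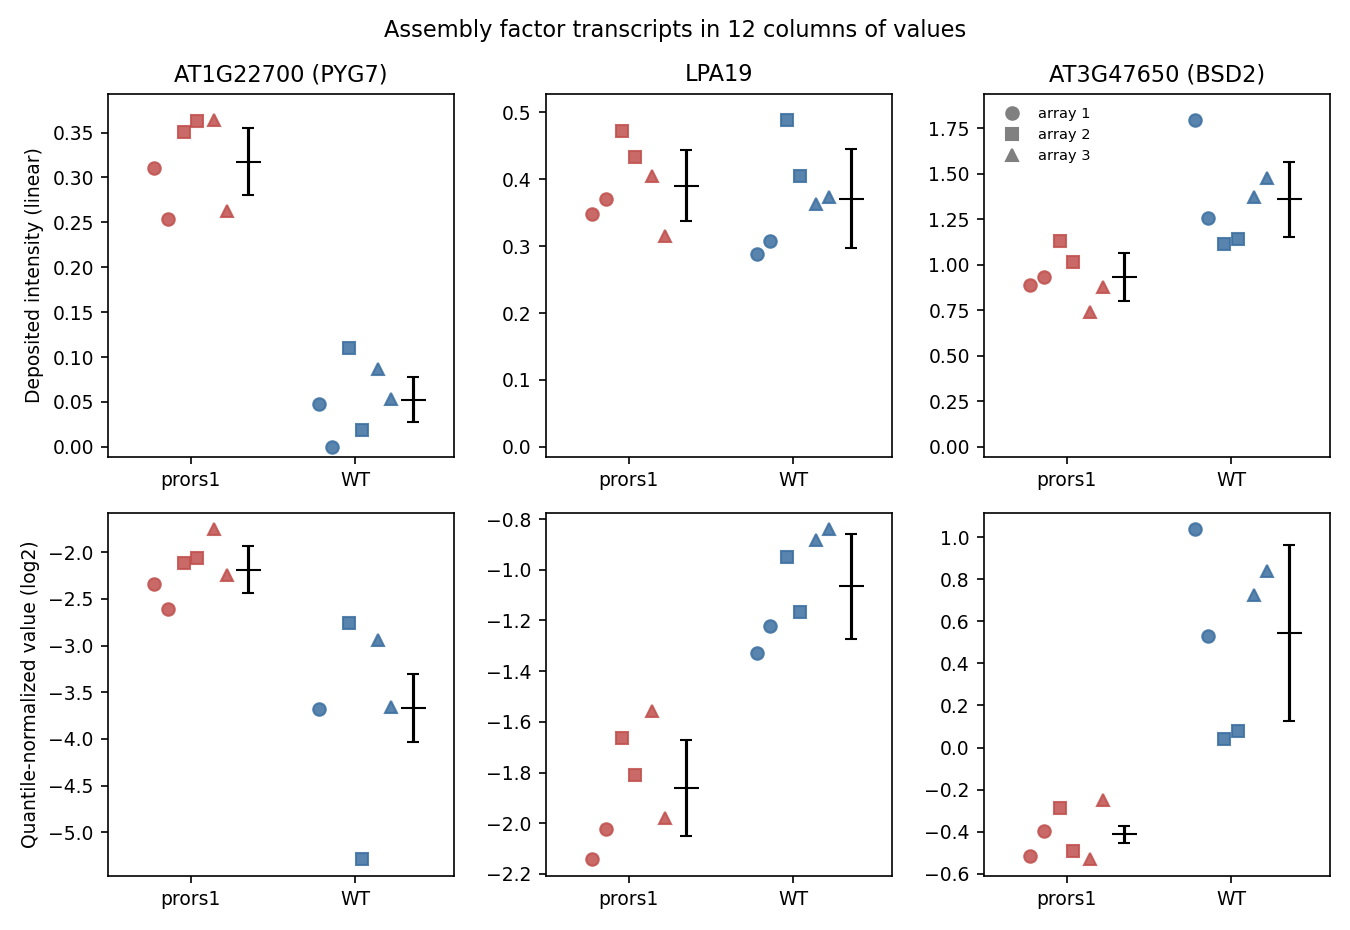
Intensity as deposited (upper row, linear axis) and quantile-normalized value (lower row, log2) of each assembly factor in the columns of prors1 and WT. Each point is 1 column, symbols mark the array, and the bar with whiskers is the mean ± SD of 3 arrays. PYG7 separates the groups in both rows, LPA19 separates them after normalization alone, and 1 prors1 column of BSD2 (1.13) lies above a WT column (1.12) as deposited. The WT column of PYG7 listed at 0 is missing from the lower row.

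LPA19, the photosystem II factor, had intensities of 0.315 (lowest), 0.388 (median) and 0.472 (highest) in prors1 columns, against 0.289, 0.368 and 0.489 in WT columns. By array LPA19 read 0.359, 0.452 and 0.360 in prors1, against 0.298, 0.447 and 0.368 in WT. The groups overlapped throughout, and array 2 was the highest in each. LPA19 averaged 0.391 ± 0.053 in prors1 and 0.371 ± 0.074 in WT (SD, n = 3 arrays each), a log2 fold of 0.083 as deposited (limma adjusted p = 0.827).

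Relative to the other probes LPA19 fell. Its normalized log2 values were -2.08, -1.74 and -1.77 on prors1 arrays, against -1.28, -1.06 and -0.86 on WT arrays, with no overlap. Lower values without overlap were found for 24.5% of tested probes after quantile normalization. The log2 fold was -0.80 ± 0.23 (SE, limma adjusted p = 0.0381), with a 95% interval of -1.33 to -0.27. Median scaling gave -0.82, cyclic loess -0.78 and a constant per column taken off -1.31 ± 0.36 (limma adjusted p = 0.0485). With that constant off, LPA19 ran from 0.0798 to 0.220 in prors1 columns and from 0.270 to 0.430 in WT columns. The direction thus turned on the scaling: 0.083 as deposited, and negative in each of the other scalings.

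The call of LPA19 did not outlast the loss of an array. Without any 1 of the 6 arrays the limma adjusted p ran from 0.0596 (without WT array 1) to 0.107 (without WT array 3), and it was 0.0607 without prors1 replicate 6.

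BSD2, the Rubisco chaperone, had intensities of 0.742 (lowest), 0.910 (median) and 1.13 (highest) in prors1 columns, against 1.12, 1.31 and 1.80 in WT columns. By array BSD2 read 0.910, 1.07 and 0.810 in prors1, against 1.53, 1.13 and 1.42 in WT. The arrays did not overlap, with prors1 array 2 and WT array 2 nearest to each other. In intensity BSD2 averaged 0.931 ± 0.13 in prors1 and 1.36 ± 0.21 in WT (SD, n = 3 arrays each). Over all tested probes, most of them brighter in prors1, 5.47% had lower arrays without overlap as deposited. In the brightness class of BSD2, 51.6% of probes were higher in prors1 as deposited. Its normalized log2 values were -0.457, -0.389 and -0.39 on prors1 arrays and 0.784, 0.061 and 0.784 on WT arrays, again without overlap. On that scale 24.5% of tested probes were lower in prors1 without overlap.

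The log2 fold of BSD2 was -0.95 ± 0.26 (SE, limma adjusted p = 0.0329), with a 95% interval of -1.56 to -0.35. The sign was negative in every setting run, but the call depended on the scaling. Median scaling gave -1.44 ± 0.26 (limma adjusted p = 0.00696). The test was not passed as deposited (-0.54 ± 0.27, limma adjusted p = 0.128), with cyclic loess (-0.80, 0.0683) or with a constant per column taken off (-0.95, 0.0746). It was also not passed without WT array 1 (0.0952), WT array 3 (0.0996), or prors1 array 1, 2 or 3 (0.0779, 0.0806 and 0.0705). Without WT array 2, where BSD2 was lowest among WT arrays, the fold was -1.16 ± 0.23 (0.0182).

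**Figure D2:**
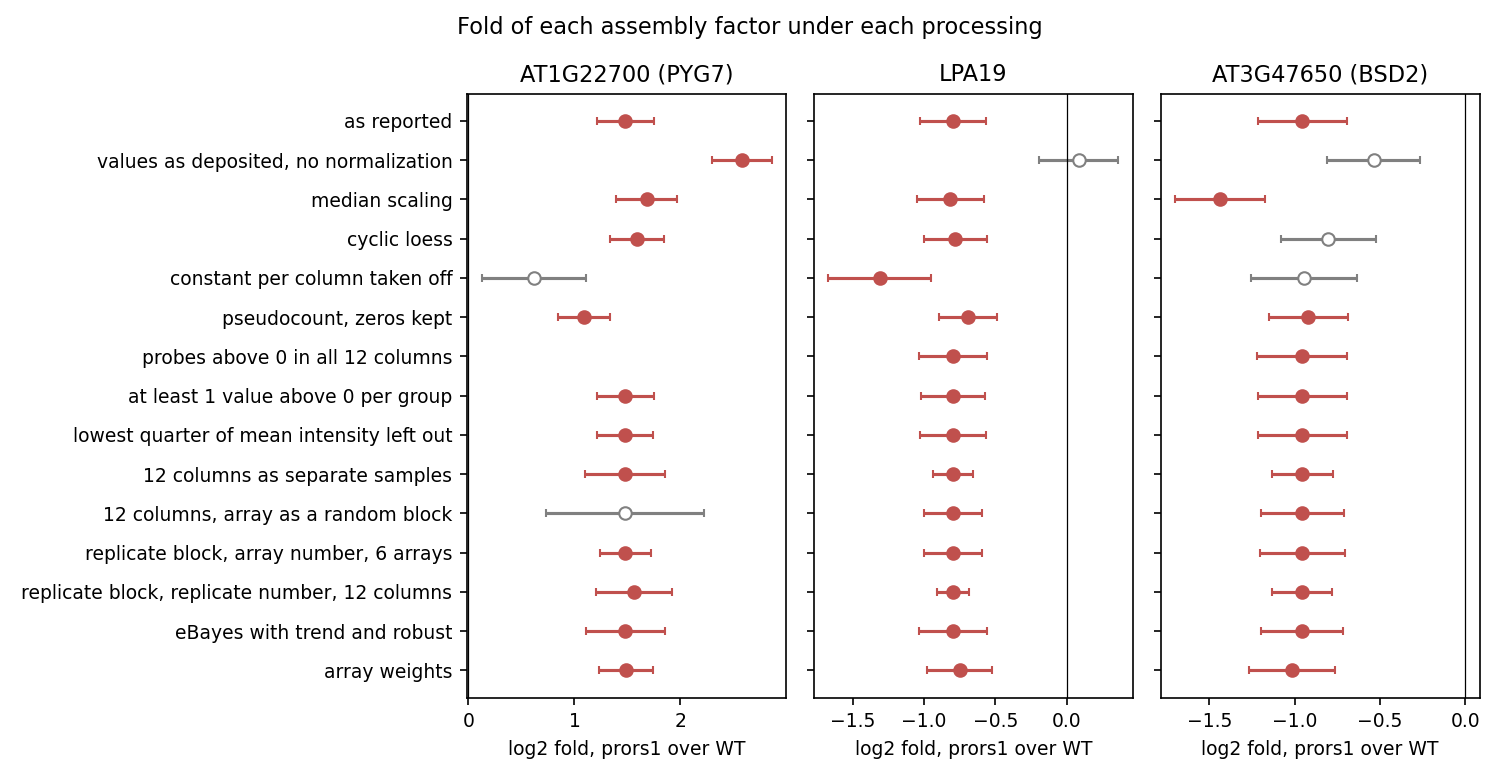
Log2 fold of prors1 over WT (x axis) with its standard error for each assembly factor under each processing (rows). Filled red points passed a limma adjusted p of 0.05 and open grey points did not. PYG7 lies above 0 and BSD2 below 0 in every row, while LPA19 lies at 0.083 for the values as deposited and below 0 in the other rows. PYG7 has no point where probes above 0 in all 12 columns were required.

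Because any scaling of a whole column cancels in a ratio of probes read in the same columns, the members were also compared with each other. On WT array 1 it does not fully cancel for PYG7, which rests on a single column there. The size of such a ratio depends on the probes. The log2 ratio of PYG7 to LPA19 was -0.36 to -0.21 on prors1 arrays and -3.29 to -2.45 on WT arrays, a difference of 2.50. That of BSD2 to PYG7 was 1.38 to 1.70 on prors1 arrays and 4.40 to 4.99 on WT arrays, a difference of -3.12. Neither pair overlapped between groups. How often other pairs of probes are free of overlap was not counted. The differences of both pairs kept their sign with the constant taken off (1.93 and -1.56). Their sizes rest on WT readings of PYG7 near the floor, with the column at 0 left out, and are not exact. With the constant off, the PYG7 columns then below 0 were left out too. The log2 ratio of BSD2 to LPA19 was 1.17 to 1.3415 on prors1 arrays and 1.3418 to 2.33 on WT arrays. These too did not overlap, by a narrow margin, with a difference of -0.62. This difference shrank to -0.16 on quantile-normalized values and turned to 0.36 with the constant off. In exact permutation tests (two-sided, 3 arrays against 3) each of the 3 pairs gave p = 0.1, the smallest this design allows, and 0.1 after Benjamini-Hochberg adjustment over the 3. This test could therefore not separate any pair from the others.

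The difference between the groups varied with the brightness of a probe. The 2908 tested probes were split into 8 classes by mean intensity over all columns. The median difference grew from class 1 (0.0521) to class 7 (0.325) and was near 0 in the brightest class. PYG7 lay in the class 2 from the dimmest, where the median difference of prors1 minus WT was 0.112 (quartiles 0.0539 and 0.198), and its own was 0.265. LPA19 lay in class 5, with a median difference of 0.243 (quartiles 0.117 and 0.377), and its own was 0.0196. BSD2 lay in the brightest class, with a median of -0.00138 (quartiles -0.714 and 0.888), and its own was -0.428. As deposited, PYG7 was thus above the upper quartile of its class, LPA19 below the lower quartile, and BSD2 between the quartiles. The part of brightness in the folds of the members was not tested beyond the scalings above.

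**Figure D3:**
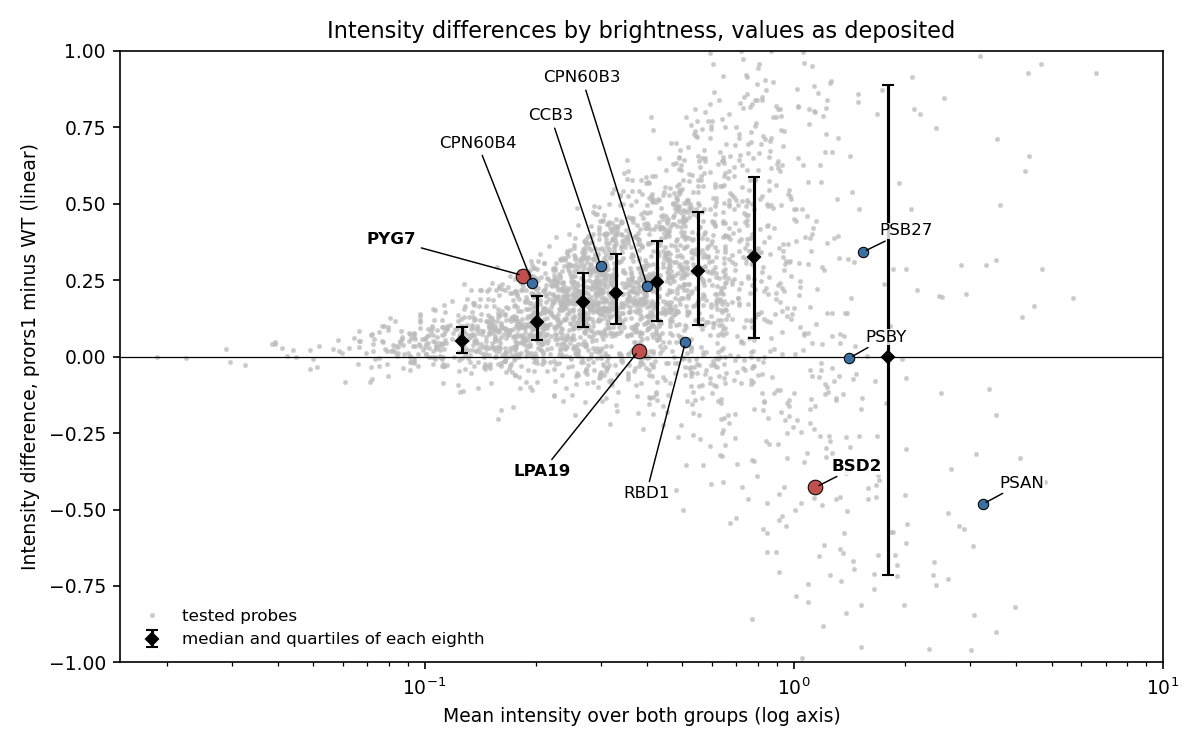
Difference in deposited intensity, prors1 minus WT (y axis, linear), against mean intensity over both groups (x axis, log). Grey points are tested probes, black diamonds with whiskers the median and quartiles of 8 classes of brightness, red points the assembly factors described here and blue points other genes of the pathway lists. PYG7 lies above the whisker of the class 2 from the dimmest, LPA19 near 0 below the whisker of its class, and BSD2 at -0.428. PSBW and 171 other tested probes lie outside the range drawn.

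Lists of 61 assembly factors and 28 photosystem and Rubisco subunits gave the members their context. Of the assembly factors, 9 had a probe of their own and 8 were tested, of which 1 rose (PYG7), 2 fell (LPA19 and BSD2) and 5 did not pass, beside 26.3% called over all tested probes. The called factors are the 3 members, chosen with results known, and 0 of the 5 other factors passed. The median log2 fold of the 8 was 0.06, against -0.06 over all tested probes. Of the subunits 3 were tested, of which 1 rose and 2 did not pass, and all 4 Rubisco small subunit genes lacked a probe of their own.

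Among photosystem II factors PSB27, the close relative of LPA19 that acts in photosystem II repair, did not pass. PSB27 averaged 1.71 ± 0.33 in prors1 and 1.37 ± 0.68 in WT (SD, n = 3 arrays each), a log2 fold of 0.15 ± 0.29 with a 95% interval of -0.52 to 0.83. RBD1 (AT1G54500), a thylakoid rubredoxin needed for photosystem II, averaged 0.533 ± 0.11 in prors1 and 0.486 ± 0.069 in WT. Like LPA19 it had a positive fold as deposited (0.12) and a negative one after quantile normalization (-0.66 ± 0.29, limma adjusted p = 0.122). The difference between the folds of LPA19 and PSB27 was not tested.

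On the list of Rubisco assembly factors the plastid chaperonin subunits CPN60B3 and CPN60B4 did not pass. CPN60B4, which is known for folding a subunit of the NDH complex, averaged 0.316 ± 0.044 in prors1 and 0.0759 ± 0.044 in WT (log2 fold 1.09 ± 0.36, limma adjusted p = 0.0570). Among other settings it was called as deposited (2.18) and under median scaling (1.28), and at 0.33 it was not with the constant off. CPN60B3 averaged 0.516 ± 0.096 in prors1 and 0.287 ± 0.043 in WT (log2 fold -0.02 ± 0.26), and was called higher as deposited (0.87, limma adjusted p = 0.0306). CCB3, which attaches haem in the cytochrome b6f complex, averaged 0.448 ± 0.095 in prors1 and 0.153 ± 0.054 in WT (log2 fold 0.59 ± 0.31, limma adjusted p = 0.190). CCB3 too was called higher as deposited (1.54, limma adjusted p = 0.00489). BFA1 (AT3G29185), an ATP synthase factor, was listed at 0 in 6 of 6 prors1 columns and 5 of 6 WT columns and was not tested.

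In intensity, prors1 minus WT was 0.265 for PYG7, 0.240 for CPN60B4, 0.296 for CCB3 and 0.229 for CPN60B3. For LPA19 and RBD1 it was 0.0196 and 0.0471, for PSB27 0.342 and for BSD2 -0.428.

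Of the subunits, PSBW, a small photosystem II protein, rose (log2 fold 1.71 ± 0.22, limma adjusted p = 0.00397), and under median scaling it did not pass (0.61). PSAN, a lumenal photosystem I protein, had -0.43 ± 0.23 and PSBY of photosystem II -0.23 ± 0.22, and both were called lower under median scaling (-1.14 and -0.90).

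**Figure D4:**
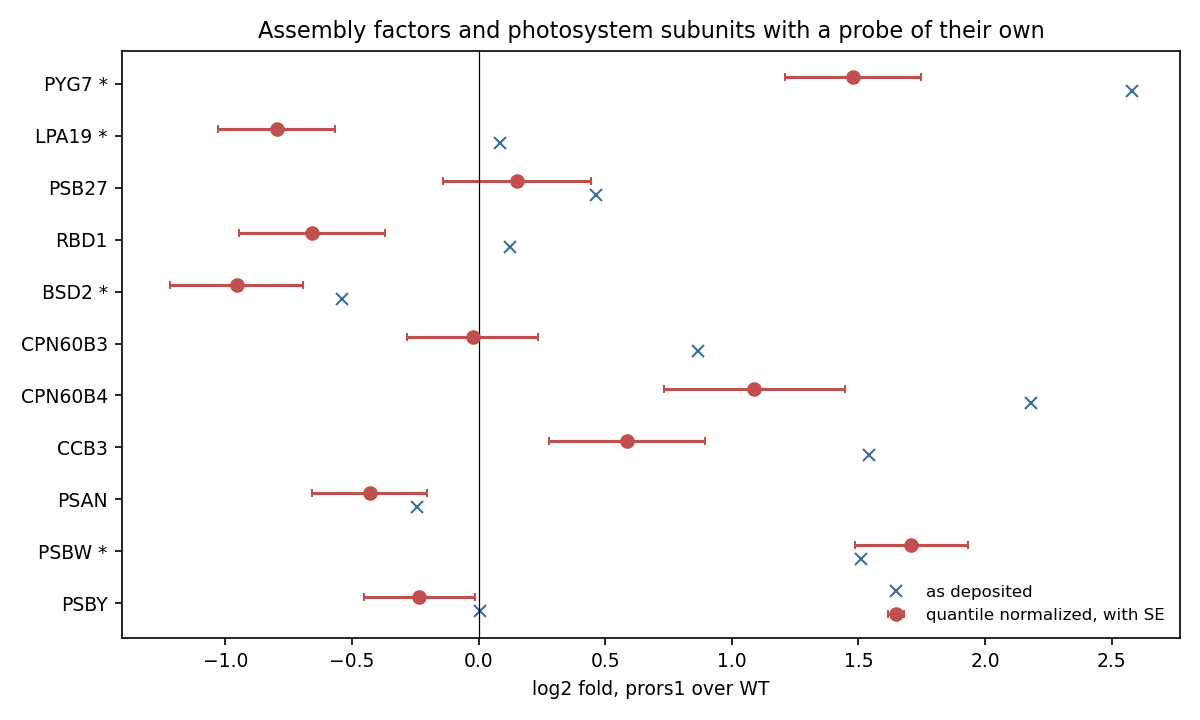
Log2 fold of prors1 over WT (x axis) for the tested assembly factors and subunits (rows). Red points with whiskers are quantile-normalized folds with their standard errors, blue crosses the folds as deposited, and an asterisk marks a limma adjusted p under 0.05. PYG7 and PSBW lie well above 0 on both scales, whereas the LPA19 fold is -0.80 after normalization and 0.083 as deposited.

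The genes most like each member were sought by Pearson's r over the 6 arrays, among 570 other genes measured on all of them. These values describe the arrays and include the difference between the groups, and so many genes over so few arrays yield high r. For PYG7 they were AT3G16310 (0.993), AT2G25870 (0.991) and AT1G13990 (0.986), all called higher, with log2 folds of 2.26 and 1.28 for the first and second. The call of AT2G25870 ended with the array as a random block (limma adjusted p = 0.0622) and that of AT1G13990 under median scaling (0.151). Without 1 column or array AT1G13990 was called in 14 of 18 fits. For LPA19 they were AT1G62250 (0.998), CSLA01 (0.991) and AT5G58410 (0.984), with log2 folds of -0.76, -0.79 and -0.76, all called lower. Like LPA19 these 3 had positive folds as deposited (0.24, 0.29 and 0.31), and under median scaling none of the 3 was called (limma adjusted p = 0.0662, 0.0909 and 0.0938). CSLA01 and AT5G58410 also lost their calls with trend and robust eBayes (0.0921 and 0.0776), as did CSLA01 with cyclic loess (0.0501) and array weights (0.0534) and AT5G58410 with the array as a random block (0.113). Without 1 column or array AT1G62250 was called in 9 of 18 fits, CSLA01 in 8 and AT5G58410 in 10. None of these 3 was tested with the constant off. For BSD2 the first was PRK (0.981), the phosphoribulokinase that makes the substrate of Rubisco, followed by AT4G37230 (0.969) and AT5G44000 (0.968). PRK had an intensity of 0.919 in prors1 and 1.13 in WT, and a log2 fold of -0.75 ± 0.23 (limma adjusted p = 0.0442). It was not called as deposited (-0.30), with cyclic loess (-0.60), with the constant off (-0.71), with the array number as a block (-0.75, limma adjusted p = 0.0517) or in 7 of 18 fits without 1 column or array. The calls of AT4G37230 and AT5G44000 ended as deposited (limma adjusted p = 0.466 and 0.929), and that of AT5G44000 also under median scaling (0.0545). AT5G44000 was called in 10 of 18 fits without 1 column or array, and AT4G37230 was not tested with the constant off.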

How the data were processed

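Total RNA of 12 samples was measured on a single-channel array. The authors deposited linear intensities between 0 and 100, with 1 column for each sample and 0 columns left over. How these were scanned, background-corrected and scaled is not given in the sources used here, nor what the scale is relative to. The members and gene lists were chosen with earlier results of these data known. Values of 0 were treated as missing, the rest log2 transformed, quantile normalized (limma 3.58.1 under R 4.3.3), and columns of an array then averaged. Columns of 1 array correlated at 0.957 to 0.965 in prors1 and 0.901 to 0.921 in WT, while columns of different arrays did so at 0.883 to 0.906 and 0.843 to 0.883. The 2908 probes with 4 or more of 6 columns above 0 in prors1 and in WT were tested with lmFit and eBayes, two-sided, group as the only term, Benjamini-Hochberg adjusted over all of them. The procedure was tested on simulated data.

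Probes were named through the platform annotation, with symbols from the TAIR10.1 gene table, and 690 of 692 single-gene probes matched. Coordinates are not given, since the probes come with no build. The text names the 3 members, every tested gene of the lists and the 3 genes most like each member. Alternatives covered the scaling, zeros (a pseudocount of 0.0595), filters, column averaging, blocks, the variance model, array weights and omission of each column or array. The number of arrays limits the precision.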

Additional observations from a re-analysis of the deposited data

How the results depend on the processing

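The count of called probes, 764 (372 higher and 392 lower in prors1), moved to 1332 as deposited (1250 and 82), to 368 with a constant per column taken off (222 and 146), where 2310 probes were tested, and to 1443 with 12 columns as separate samples. The replicate block gave 840 calls with array numbers and 1532 with replicate numbers on 12 columns. It changed no call of the 3 members, and of the other named genes it ended that of PRK with array numbers (adjusted p = 0.0517) and gave one to CPN60B4 (0.0317), and with replicate numbers it gave calls to CPN60B4 (0.0135), RBD1 (0.00793) and PSAN (0.0125). Array numbers were not treated as pairing, since the deviations of same-numbered arrays had correlations of 0.183, 0.083 and 0.238. Each array did correlate best with the same-numbered one, which hints at pairing without showing it. Leaving out 1 column or array gave 394 to 750 calls, lowest without prors1 array 2 (394), WT array 3 (450), prors1 array 1 (458) and WT array 1 (486).

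The log2 fold of AT1G22700 lost its call with the constant off (0.62) and with the array as a random block (1.48), was 2.58 as deposited, and ran from 1.05 (without WT replicate 4) to 1.87 (without WT replicate 3) without 1 column or array, called in 18 of 18 such fits. LPA19 turned as deposited (0.083), was -1.31 with the constant off, and ran from -0.88 to -0.70 without 1 column or array, called in 11 of 18. AT3G47650 lost its call as deposited (-0.54), with cyclic loess (-0.80) and with the constant off (-0.95), and ran from -1.16 to -0.80, called in 13 of 18. Of the pathway lists 4 genes were called (2 higher, 2 lower), 5 as deposited (5 and 0), 6 under median scaling (2 and 4), 3 with cyclic loess (2 and 1) and 2 with the constant off (1 and 1). Within-array differences ran from 2.25 to 2.67 for AT1G22700 to LPA19, from -0.89 to -0.39 for AT3G47650 to LPA19 and from -3.25 to -2.96 for AT3G47650 to AT1G22700 without 1 array. With 12 columns as separate samples, which counts readings of 1 array separately, they were 2.52, -0.62 and -3.11 (exact permutation p = 0.00216, 0.0216 and 0.00216). That of AT3G47650 to LPA19 turned with the constant off (0.36).

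Folds also turned as deposited for RBD1 (0.12), CPN60B3 (0.87), PSBY (0.0042), AT1G62250 (0.24), CSLA01 (0.29), AT5G58410 (0.31) and AT5G44000 (0.036). CPN60B3 turned with cyclic loess (0.0024) and the constant off (0.088) and PSB27 under median scaling (-0.44). Without 1 column or array PSB27 ran from -0.13 to 0.36 and CPN60B3 from -0.20 to 0.11. The causes were not tested.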
